A study of Mus musculus with 21 samples.

Results

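The 34 genes described here encode the proteins that bring fatty acids into the heart muscle cell and oxidise them in mitochondria. They were chosen as a list of symbols covering uptake, activation, the carnitine shuttle, beta oxidation, electron transfer and 2 regulators, and all 34 of them were found among the 22136 genes of the deposited table. RNA-seq of left ventricle came from 21 male wild-type C57BL/6 mice, 3 in each of 7 groups, that were 8 weeks old at surgery with tissue taken 8 weeks later. In Sham mice no ligature was tied. AB mice had aortic banding, a tie around the ascending aorta that forces the left ventricle to pump against a raised pressure. AB_Implant mice were banded and carried a vagus nerve stimulator, placed at week 1 and never activated. The 4 remaining groups were banded and received low-level stimulation of the left cervical vagus nerve (4 µA, 2 Hz) from a biodegradable generator under the skin. VNS20_1w, VNS20_2w and VNS20_4w had 20 min a day starting at weeks 1, 2 and 4, and VNS10_1w had 10 min a day starting at week 1. Stimulation lasted 7, 6, 4 and 7 weeks in that order. No group had stimulation without banding.

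Long-chain fatty acids are the main fuel of the healthy adult heart. Lipoprotein lipase frees them from circulating lipoproteins, CD36 and fatty acid transport proteins carry them across the membrane, and acyl-CoA synthetases activate them. Carnitine palmitoyltransferases move them into the mitochondrion, where each turn of beta oxidation (dehydrogenation, hydration, a second dehydrogenation and thiolysis) releases acetyl-CoA and passes electrons to the respiratory chain. PPARα, encoded by Ppara, and its coactivator PGC-1α, encoded by Ppargc1a, drive transcription of many of these genes, and lower expression of them is widely described in the overloaded heart.

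All 34 genes passed the filter on low counts (at least 1 CPM, the count scaled by the library total, in at least 3 libraries), as did 12100 genes in all. Library totals ran from 11577509 to 19414865 counts, and the 8 cardiomyocyte markers were present in every library, with a summed level of 40240 to 83450 CPM. Levels below are CPM scaled with TMM factors (TMM-scaled CPM). Tests are edgeR's quasi-likelihood test with Benjamini-Hochberg adjustment over the 12100 genes, and a gene was called at an adjusted p under 0.05. Some libraries stood apart. The slope of log2 CPM on log2 transcript length, a measure of how strongly a library favours long transcripts, ran from -0.372 to 0.537, and the 3 highest slopes were those of replicate 2 of VNS20_1w, replicate 1 of VNS20_2w and replicate 2 of VNS10_1w, while the 3 VNS20_4w libraries lay between -0.372 and -0.305. Results that rest on these 3 libraries are given with and without them. In bulk tissue, fewer cells of a type and less RNA per cell cannot be told apart.

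Fabp3, the fatty acid binding protein of heart muscle, was the most abundant of the 34 genes per length, with a mean over 21 libraries of 5949 TMM-scaled CPM per kb of transcript. Hadhb at 606, Acaa2 at 541, Etfa at 499.6 and Acadvl at 481 CPM per kb followed it. At the other end were Ppara at 1.14, Acad10 at 1.59, Cpt1a at 1.95 and Ppargc1a at 4.55 CPM per kb. The muscle isoform Cpt1b, at 197 CPM per kb, was thus far above the liver isoform Cpt1a. The 2 regulators and Cpt1a were also the most variable: the SD of log2 level over the 21 libraries was 1.495 for Ppargc1a, 0.97 for Cpt1a and 0.89 for Ppara, against a median of 0.35 over the 34 genes and 0.44 over all tested genes. The steadiest gene was Acadl, the long-chain acyl-CoA dehydrogenase, with an SD of 0.15 and only a 1.49-fold range from its lowest library to its highest. The share of a gene's variance that lay between groups was 17.4% (Acadl) to 57.4% (Ppargc1a), with a median of 29.6%. With 7 groups of 3 libraries, a sizeable share lies between groups even where no group differs, so these shares alone show no group effect. Of the 561 pairs among the 34 genes, 52.2% had a correlation of log2 level above 0.5 over the 21 libraries and 20.3% had one below -0.5, with a median of 0.561; all pairs share the libraries and their length slopes.

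**Figure D1:**
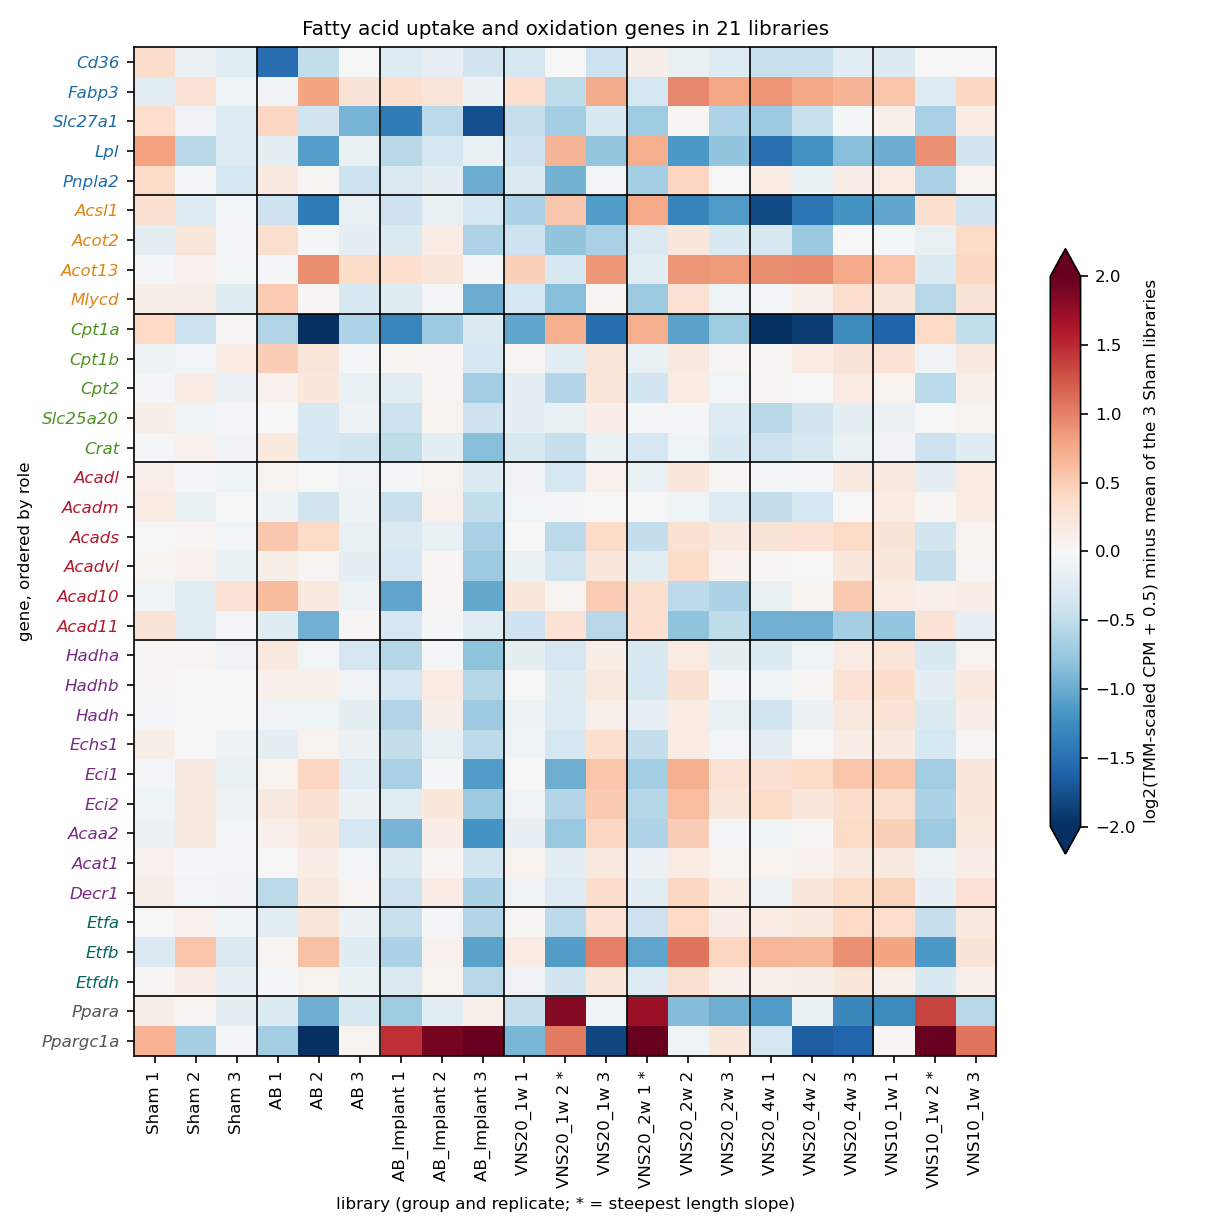
Each cell is the log2(TMM-scaled CPM + 0.5) of 1 gene in 1 library minus the mean of the 3 Sham libraries, with genes ordered by role and colours held at 2 either way. AB_Implant replicates 1 and 3 are lower than Sham in most oxidation genes while Ppargc1a is higher in all 3 AB_Implant libraries, and the 3 starred libraries are high in Ppara, Lpl, Acsl1 and Cpt1a and low in Fabp3, Acot13 and Etfb.

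Across 14 contrasts and 2 F tests, edgeR called 0 of the 34 genes in every one. The numbers at an unadjusted p under 0.05 ran from 0 to 10 of 34. In the F test over the 7 groups, where 0.512% of all genes were called, Ppargc1a alone of the 34 had an unadjusted p under 0.05 (adjusted p = 0.275, edgeR), against 10.4% of all genes. DESeq2 called 1 of 34 in that test, Ppargc1a (adjusted p = 0.0305), with 4.47% of all genes called, and limma-voom with sample weights called 13 of 34, with 47.9% of all genes called. The standard error (SE) of a log2 fold change between 2 groups had a median of 0.27 over the 34 genes. It comes from a fit in which the 7 groups share 1 estimate of the spread. The median log2 fold change of the 34 genes ran from -0.30 to 0.34 over the 14 contrasts. The SE is that of a single gene and does not measure the spread of such a median.

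**Figure D2:**
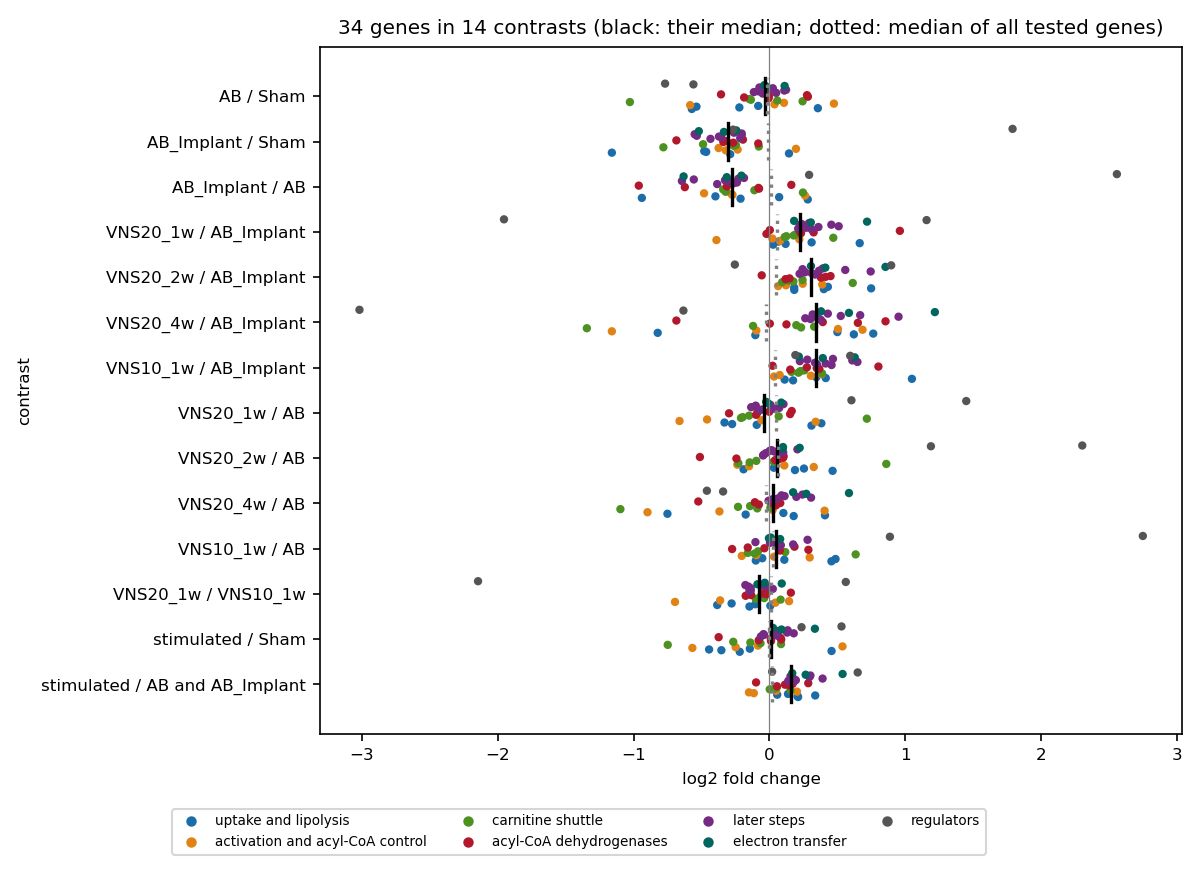
Each point is the log2 fold change of 1 of the 34 genes in 1 of 14 contrasts, coloured by role; black bars mark the median of the 34 and dotted bars the median of all 12100 tested genes. The 34 genes lie mostly below 0 in AB_Implant against Sham (median -0.30) and against AB (median -0.28), and mostly above 0 in the 4 contrasts of a stimulated group against AB_Implant (medians 0.22 to 0.34).

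Banding without a device was compared with the sham operation in AB against Sham. The median log2 fold change of the 34 genes was -0.03, with 14 genes above 0 and 20 below, beside 48.5% of all genes above 0 and a median of -0.02 over them. With the length slope as a covariate the median was -0.16, with 6 genes above 0 and 28 below, and 0 of 34 were called (0.0248% of all genes). No gene of the 34 was called by edgeR, DESeq2 or limma-voom with sample weights, 0 had an unadjusted p under 0.05, beside 4.93% of all genes, and edgeR called 0% of all genes. The smallest p belonged to Cd36, the main fatty acid translocase of the heart muscle membrane (log2 fold change -0.57, SE 0.28, adjusted p = 0.839, edgeR). Its levels were 1316, 951 and 879 CPM in Sham and 357, 735 and 1025 CPM in AB. The low value came from AB replicate 1, and the groups overlapped. Cpt1a, Hadh and Ppara were the 3 genes whose AB libraries all lay below all Sham libraries, which is 8.82% of the 34 beside 6.99% of all genes, and no gene of the 34 lay wholly above, beside 6.77% of all genes.

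In banded hearts with an inactive device most of the pathway lay below both Sham and AB. In AB_Implant against Sham, 31 of the 34 genes had a log2 fold change below 0, with a median of -0.30, beside 51.2% of all genes and a median of -0.01 over all genes. Against AB, 27 of 34 lay below 0 with a median of -0.28, beside 48.8% of all genes and a median of 0.01. These 2 contrasts share the AB_Implant libraries. No single gene of the 34 passed the test: edgeR called 0 of 34 in both, beside 0.24% of all genes against Sham and 0% against AB, and 2 and 4 of the 34 had an unadjusted p under 0.05, beside 9.58% and 9.07% of all genes. DESeq2 called 0 of 34 in both, and limma-voom with sample weights called 3 against Sham (Slc27a1 and Acad10 lower, Ppargc1a higher; 4.17% of all genes) and 0 against AB (0.0909%). AB_Implant replicate 3 was the lowest of all 21 libraries for 20 of the 34 genes. Leaving out AB_Implant replicate 3 moved the median to -0.19 against Sham and -0.13 against AB, and leaving out replicate 2 moved it to -0.46 and -0.48. With the length slope as a covariate the medians were -0.29 against Sham and -0.15 against AB. By role, all 5 carnitine shuttle genes, all 6 acyl-CoA dehydrogenases, all 9 genes of the later steps and all 3 electron transfer genes were below 0 against Sham, with medians of -0.26, -0.29, -0.35 and -0.33. Slc27a1, Crat, Acads and Echs1 lay below Sham in every AB_Implant library, 11.8% of the 34 beside 9.32% of all genes, and Ppargc1a lay above it in every one, beside 9.45% of all genes. The exceptions in direction among the 34 were Fabp3 at 0.14, Acot13 at 0.20 and Ppargc1a at 1.79. The summed level of the 34 genes was 15860, 18940 and 13380 CPM in AB_Implant replicates 1 to 3, against 17130 to 19520 CPM in Sham, so replicate 2 lay within the Sham range and the other 2 below it. Fibroblast markers, 6 of 6 detected in every group, summed to 871.9, 503.5 and 865 CPM in these 3 libraries and to 447 to 612 CPM in Sham. Replicate 3 had the lowest cardiomyocyte marker sum, 40240 CPM, and the lowest share of counts from the mitochondrial genome, 34.4%, of all 21 libraries. The part of these in the result was not tested. The banding response gene Nppa, which encodes atrial natriuretic peptide, was 5401, 1320 and 4456 CPM in the same 3 libraries and 106.5 to 347 CPM in Sham. Among these 3, replicate 2, with the highest summed level of the 34 genes, had the least Nppa. VNS20_4w shared this order: Nppa was 5502, 2509 and 954 CPM in replicates 1 to 3, and the sums were 19770, 19880 and 21740 CPM. The 5502 CPM was the most Nppa of all 21 libraries. Not every group did so. In AB, replicate 2 had both the highest sum, 20500 CPM, and the most Nppa, 1490 CPM. By mean log2 level of the 34 genes, however, AB replicate 1 was highest (7.83, against 7.70 and 7.695), and it had the least Nppa, 398.6 CPM. A link between Nppa and these genes was not tested.

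**Figure D3:**
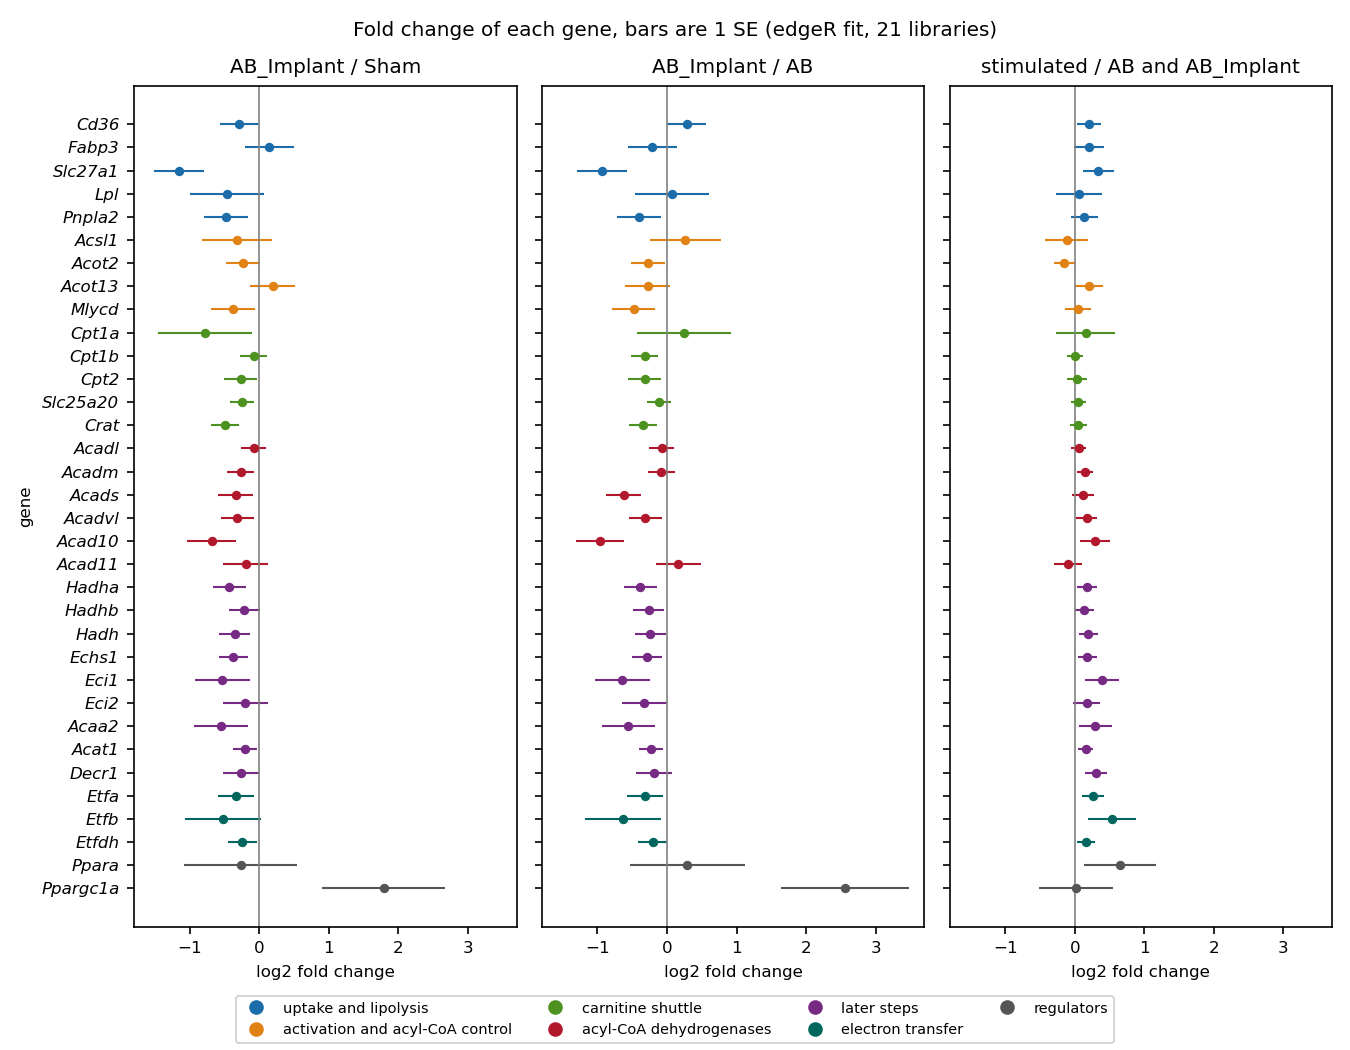
Log2 fold changes of the 34 genes with 1 SE on either side, for AB_Implant against Sham, AB_Implant against AB, and all 4 stimulated groups together against AB with AB_Implant. Most genes lie left of 0 in the first 2 panels and slightly right of 0 in the third (median 0.16), with Ppargc1a as the exception at 1.79, 2.56 and 0.02.

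Among the uptake genes, Slc27a1 showed the largest difference in AB_Implant. It encodes fatty acid transport protein 1, an acyl-CoA synthetase of the membrane (chr8:71568882-71587302, plus strand, GRCm38). Its levels were 171, 129.5 and 113 CPM in Sham, 181.5, 102 and 70.85 CPM in AB, and 50.5, 94.7 and 40.0 CPM in AB_Implant. Every AB_Implant library lay below every Sham library, and AB overlapped both. The log2 fold change was -1.16 against Sham (SE 0.36, adjusted p = 0.213, edgeR), and leaving out AB_Implant replicate 2 brought it past the threshold (log2 fold change -1.61, adjusted p = 0.0471, edgeR), the only one of the 34 genes called when a library was left out. In stimulated mice Slc27a1 was 99.1, 83.95 and 110.3 CPM in VNS20_1w, 82.7, 139.8 and 88.6 CPM in VNS20_2w, 81.8, 99.7 and 133 CPM in VNS20_4w, and 145, 86.2 and 151 CPM in VNS10_1w. Of these 12 values, 7 were above the highest AB_Implant library. The log2 fold change of VNS10_1w against AB_Implant, the smallest p of the 34 genes in that contrast, was 1.05 (SE 0.36, adjusted p = 0.422, edgeR).

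Fabp3, Lpl and Cd36 had other patterns. Fabp3, which ferries fatty acids through the cytosol, was 3280, 4637 and 3585 CPM in Sham, 3600, 6588 and 4540 CPM in AB, and 4723, 4496 and 3491 CPM in AB_Implant. It was 7019, 6452 and 6085 CPM in VNS20_4w, above every AB_Implant library (log2 fold change 0.62, edgeR, not called). Lpl, lipoprotein lipase, was 938, 1078 and 1241 CPM in AB_Implant and 488, 590 and 764 CPM in VNS20_4w, which did not overlap (log2 fold change -0.82, not called), while Sham replicate 1 at 2412 CPM stood far above the other Sham libraries at 933 and 1151 CPM. In the remaining stimulated groups Lpl was split by library: the 3 libraries of steepest length slope had 2207, 2278 and 2581 CPM, and the 6 others 622 to 1070 CPM. Cd36 in AB_Implant was 863, 922 and 791 CPM, within the range of AB. Pnpla2, the triglyceride lipase of lipid droplets, ranged from 187 CPM in AB_Implant replicate 3 to 497 CPM in VNS20_2w replicate 2.

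Of the genes that activate acyl chains or control acyl-CoA, Acsl1, the main long-chain acyl-CoA synthetase of the heart, was 338, 228 and 262 CPM in Sham, 205, 245 and 212 CPM in AB_Implant, and 78.2, 98.1 and 120.1 CPM in VNS20_4w. VNS20_4w lay below every library of both groups, with a log2 fold change against AB_Implant of -1.16 (SE 0.51, adjusted p = 0.179, edgeR). The cytosolic thioesterase Acot13 lay the other way, at 266, 248.7 and 206 CPM in AB_Implant and 401, 404 and 353 CPM in VNS20_4w (log2 fold change 0.69, SE 0.32, adjusted p = 0.190, edgeR). Acot2, a mitochondrial thioesterase, was 27.5, 21 and 23.3 CPM in VNS20_1w against 35.4, 32.9 and 47.9 CPM in VNS10_1w and 46.0, 35.6 and 32.0 CPM in AB. Its VNS20_1w libraries lay below every library of both other groups. The log2 fold change was -0.70 against VNS10_1w (SE 0.25, adjusted p = 0.728, edgeR) and -0.66 against AB (SE 0.25, adjusted p = 0.912, edgeR). Mlycd, which breaks down malonyl-CoA, the inhibitor of the carnitine shuttle, ranged from 42.2 CPM in AB_Implant replicate 3 to 121 CPM in AB replicate 1.

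In the carnitine shuttle, the muscle isoform Cpt1b, the step that commits long-chain acyl groups to oxidation, varied little. It was 504, 519 and 598.5 CPM in Sham, 761, 637 and 522.5 CPM in AB, and 556, 556 and 425 CPM in AB_Implant, with overlapping groups. Over all 12 stimulated libraries it lay between 463 and 654 CPM, and the log2 fold change of stimulated against AB and AB_Implant was 0.0023 (SE 0.12, not called). The liver isoform Cpt1a was scarce, with as few as 10 counts in a library. It was 16.2, 8.87 and 12.3 CPM in Sham, 7.82, 2.66 and 7.68 CPM in AB, 4.59, 7.11 and 9.95 CPM in AB_Implant, and 0.910, 2.87 and 4.73 CPM in VNS20_4w. Its levels in the 3 libraries of steepest length slope were 20.38, 20.25 and 16.1 CPM, above the other 9 stimulated libraries and close to or above Sham replicate 1. VNS20_4w lay wholly below Sham and overlapped AB and AB_Implant. The log2 fold change of VNS20_4w against AB was -1.10, the lowest of the 34 genes there and not called. Hepatocyte markers, of which 12 of 14 passed the filter, summed to 25.5 to 134 CPM in the 12 stimulated libraries and 1.253 to 7.99 CPM in the 9 unstimulated ones, where Ambp and Kng1 were at 0. In VNS20_4w, where Cpt1a was lowest, they summed to 95.0 to 134 CPM, and their part in the result was not tested. Crat, which buffers acetyl groups as acetylcarnitine, was 380, 413 and 370 CPM in Sham and 272, 343 and 214 CPM in AB_Implant, without overlap (log2 fold change -0.49, SE 0.20, adjusted p = 0.423, edgeR). Cpt2 ranged from 130.0 to 249.7 CPM over the 21 libraries and Slc25a20, the carnitine-acylcarnitine translocase, from 71.2 to 115 CPM.

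The acyl-CoA dehydrogenases open each turn of beta oxidation, each for its own chain length. Acadvl, for very long chains, was 1108, 1128 and 968 CPM in Sham and 841, 1088 and 644 CPM in AB_Implant. Acadl, for long chains, was 928, 859 and 822 CPM in Sham and 842, 915 and 708 CPM in AB_Implant. Acadm, for medium chains, was 901, 745 and 812 CPM in Sham and 600.5, 865 and 578 CPM in AB_Implant. In all 3 genes AB_Implant replicate 3 was the lowest of these 6 libraries and replicate 2 lay within the Sham range. Acads, for short chains, was 149, 167 and 116.5 CPM in AB_Implant, below every Sham library (184, 187.5 and 175 CPM). It was 218, 224 and 238 CPM in VNS20_4w, without overlap with AB_Implant (log2 fold change 0.65, SE 0.26, adjusted p = 0.163, edgeR). Acad10, a dehydrogenase family member of low abundance, was 2.60, 5.98 and 2.65 CPM in AB_Implant and 9.47, 6.81 and 5.47 CPM in AB, and the groups overlapped through replicate 2 (log2 fold change -0.96, SE 0.35, adjusted p = 0.433, edgeR). Acad11 ranged from 40.1 to 99.7 CPM.

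Of the later steps, the 2 subunits of the mitochondrial trifunctional protein, Hadha (alpha) and Hadhb (beta), stayed closely tied. Hadha was 925, 1354 and 788.5 CPM in AB_Implant against 1399, 1435 and 1310 CPM in Sham (log2 fold change -0.43, adjusted p = 0.627 in edgeR), so replicate 2 again lay with Sham. Over 21 libraries the ratio of Hadha to Hadhb stayed between 0.932 and 1.20 with a median of 1.03, and the correlation of their log2 levels was 0.934, a description of libraries that also share depth and length slope. The genes lie head to head on chromosome 5, with 85 bases between them in the annotation. That stretch is shown because both genes start from it (RefSeq promoter sequence, GRCm38.p6, chr5:30155163-30155247, plus strand, read toward Hadhb, all in lower case since no motif is marked).
Hadha-Hadhb interval: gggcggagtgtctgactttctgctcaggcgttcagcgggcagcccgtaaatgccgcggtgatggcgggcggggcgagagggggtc
It is 69.4% G or C. Hadhb was not in the naming rule and was added for this pairing after its values were seen. Acaa2, a thiolase of the last step of a turn, was 442, 928 and 370.4 CPM in AB_Implant and 781.5, 955 and 811 CPM in Sham, the lowest log2 fold change of the 9 genes of these steps (-0.55, not called). Eci1, an isomerase needed for unsaturated chains, was 179, 277.5 and 129.9 CPM in AB_Implant and 348.5, 369 and 415 CPM in VNS20_4w, without overlap (log2 fold change 0.95, SE 0.40, adjusted p = 0.171, edgeR). The other genes of these steps, Hadh, Echs1, Eci2, Acat1 and Decr1, had log2 fold changes of -0.37 to -0.20 in AB_Implant against Sham. Of all 9, the smallest p in that contrast was that of Hadha.

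Electron transfer flavoprotein carries the electrons of the dehydrogenases to its oxidoreductase, Etfdh, and on to ubiquinone. Etfdh was 669, 728 and 593 CPM in Sham, 539.5, 691.5 and 449.5 CPM in AB_Implant, and 709, 713 and 765 CPM in VNS20_4w. VNS20_4w lay above every AB_Implant library, and Sham overlapped AB_Implant. The subunit genes followed in the same order: Etfa was 507, 677 and 459 CPM in AB_Implant and 767.5, 793 and 907 CPM in VNS20_4w, and Etfb was 33.7, 56.2 and 25.0 CPM in AB_Implant and 84.2, 82.4 and 100.2 CPM in VNS20_4w. For Etfb the log2 fold change, 1.22 (SE 0.55, adjusted p = 0.184, edgeR), was the highest of the 34 genes in that contrast. Etfb was also the gene furthest below the other stimulated libraries in the 3 libraries of steepest length slope, at 23.6 to 25.05 CPM against 58.7 to 111 CPM in the other 9 stimulated libraries.

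Of the 2 regulators, Ppargc1a was the most variable of the 34 genes, and in each stimulated group but VNS20_4w both were highest in the library of steepest length slope. Ppargc1a (chr5:51454250-51567726, minus strand, GRCm38) was 23.8, 8.93 and 14.2 CPM in Sham, 8.78, 3.255 and 15.2 CPM in AB, and 40.9, 56.0 and 65.4 CPM in AB_Implant. All 3 AB_Implant libraries were above all 6 libraries of Sham and AB. The log2 fold change of AB_Implant was 1.79 against Sham (SE 0.89, adjusted p = 0.557, edgeR) and 2.56 against AB (SE 0.92, adjusted p = 0.423, edgeR), so neither passed, while 31 of the 34 genes lay below Sham in the same hearts. In stimulated mice it was 7.46, 30.35 and 3.73 CPM in VNS20_1w, 104.6, 13.7 and 17.0 CPM in VNS20_2w, 11.3, 4.31 and 4.48 CPM in VNS20_4w, and 14.8, 139 and 31.0 CPM in VNS10_1w. VNS20_1w and VNS20_4w lay wholly below AB_Implant, and the other 2 groups overlapped it through 1 library each, VNS20_2w replicate 1 and VNS10_1w replicate 2. The log2 fold change of VNS20_4w against AB_Implant was -3.02 (SE 0.94, adjusted p = 0.141, edgeR) and was called by DESeq2 (log2 fold change -3.01, adjusted p = 0.0386). EdgeR's calls differed with the length slope. With the length slope of each library as a covariate, edgeR called Ppargc1a higher in AB_Implant against Sham (log2 fold change 1.92, SE 0.31, adjusted p = 0.0046) and against AB (1.94, SE 0.32, adjusted p = 0.0214), and lower in VNS20_1w against AB_Implant (-2.18, SE 0.32, adjusted p = 0.00139). The same fit called it higher than AB in VNS20_2w (1.64, adjusted p = 0.0317) and VNS10_1w (1.75, adjusted p = 0.0483), and did not call it in VNS20_4w against AB_Implant (-1.20, adjusted p = 0.208). Without the 3 steepest libraries it was called lower than AB_Implant in VNS20_1w (-3.19, SE 0.63, adjusted p = 0.0346) and in VNS20_4w (-2.96, SE 0.53, adjusted p = 0.00369), and its log2 fold change in stimulated against AB and AB_Implant was -1.01 (adjusted p = 0.0447), in place of 0.02 with them.

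Ppara was scarce, with a minimum of 14 counts in a library. It was 3.925, 3.72 and 3.11 CPM in Sham, 2.88, 1.58 and 2.76 CPM in AB, and 2.00, 3.03 and 3.86 CPM in AB_Implant, with AB wholly below Sham (log2 fold change -0.56, not called). In the 3 libraries of steepest length slope it was 14.02, 12.9 and 9.83 CPM, and in the other 9 stimulated libraries 1.16 to 3.33 CPM. Its positive log2 fold change in stimulated against AB and AB_Implant, 0.65, the highest of the 34 genes there and not called, was -0.38 without these 3 libraries, also not called.

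**Figure D4:**
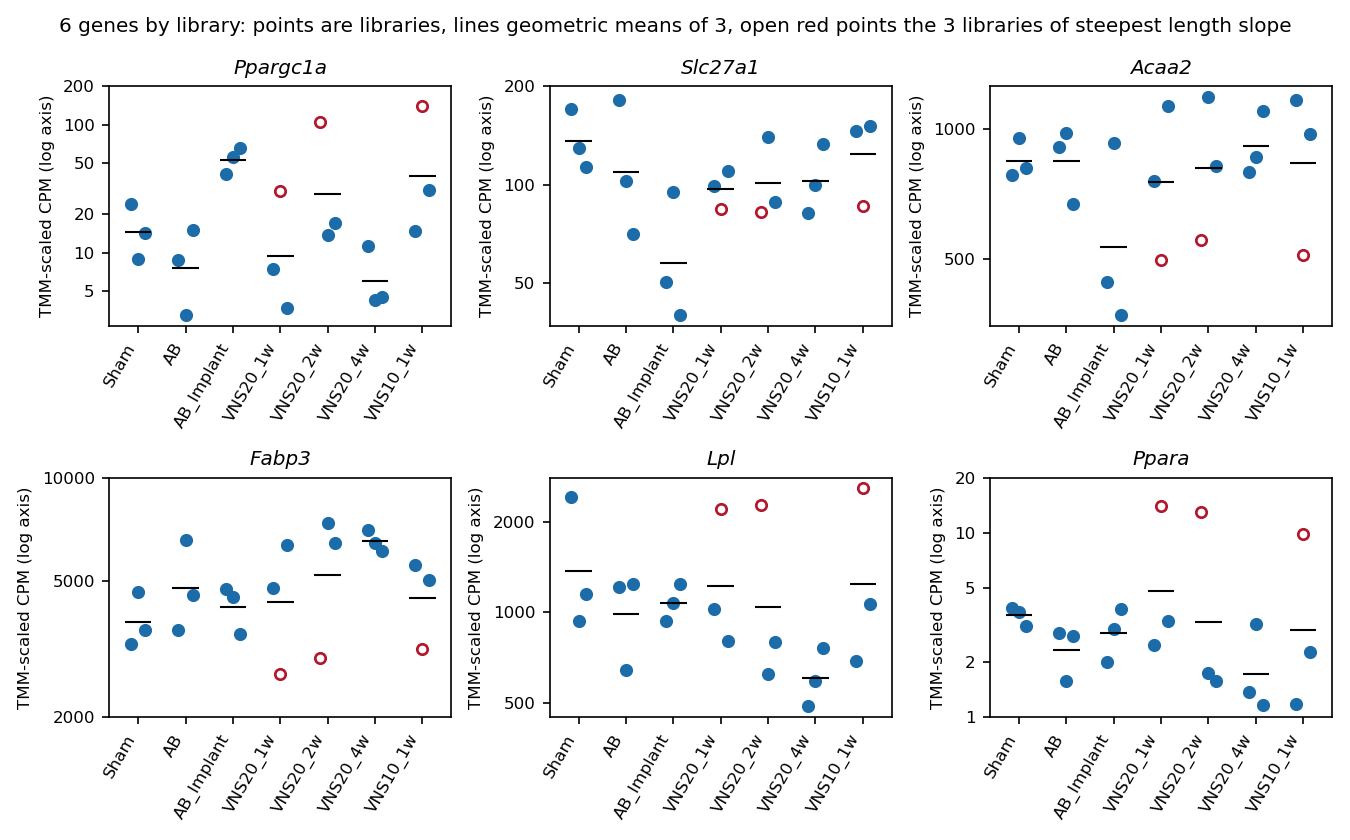
TMM-scaled CPM of Ppargc1a, Slc27a1, Acaa2, Fabp3, Lpl and Ppara in each library on log axes; lines are geometric means of 3 libraries and open red points are the 3 libraries of steepest length slope. AB_Implant is high in Ppargc1a (40.9 to 65.4 CPM) and low in Slc27a1 (40.0 to 94.7 CPM), and the open points are the highest stimulated libraries in Lpl and Ppara and the lowest in Fabp3.

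Promoters of 27 of the 34 genes were in the RefSeq table of promoters (250 bases before to 50 after the start site, GRCm38.p6, 30 promoters for these 27 genes). Those of Lpl, Acot13, Cpt1b, Crat, Acaa2, Acat1 and Decr1 were not in it and were not searched. None of the 27 held the DR1 element to which PPAR and RXR bind, which 0.0396% of all 32851 promoters hold, nor a looser form of it (0.381%), nor TCAAGGTCA, the element of the estrogen-related receptors (0.423%), on either strand. The receptor half-site AGGTCA, contained in DR1 and in TCAAGGTCA, was in Acadm, Acadvl, Cd36, Cpt1a and Echs1 (16.3% of all promoters). The core TGACGT of the cyclic AMP response element was in Fabp3 and Ppargc1a (7.51%), and the full TGACGTCA in none of the 27 (1.79%). The last 3 motifs were chosen with the data in view. Windows of this size do not cover enhancers. DR1, its looser form and TCAAGGTCA are so rare over all promoters that 30 promoters would mostly hold none. The absence of these elements here therefore decides nothing about the 34 genes. The Ppargc1a and Fabp3 sequences are shown as the most variable and the most abundant gene, up to the last base before the annotated gene, 5′ to 3′ on the gene's strand, with the core or its reverse complement in capitals.
Ppargc1a, chr5:51567727-51567975, minus strand: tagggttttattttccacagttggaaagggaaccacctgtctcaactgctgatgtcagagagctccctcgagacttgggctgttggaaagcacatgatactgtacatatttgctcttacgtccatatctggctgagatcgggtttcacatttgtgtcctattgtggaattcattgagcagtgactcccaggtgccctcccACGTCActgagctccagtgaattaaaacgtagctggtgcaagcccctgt
Fabp3, chr4:130308488-130308594, plus strand: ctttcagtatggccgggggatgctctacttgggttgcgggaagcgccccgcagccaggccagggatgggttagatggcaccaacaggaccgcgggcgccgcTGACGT
The match in Ppargc1a begins 49 bases before the gene and that in Fabp3 begins 6 bases before it. The 2 genes did not share a pattern over the groups.

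Against AB_Implant, all 4 stimulated groups had higher levels of most of the pathway, with no single gene called by edgeR. The count of the 34 genes above 0 was 31 in VNS20_1w, 32 in VNS20_2w, 25 in VNS20_4w and 34 in VNS10_1w, with median log2 fold changes of 0.22, 0.31, 0.34 and 0.34. Over all genes 55.6%, 55%, 49% and 55.5% were above 0, with medians of -0.02 to 0.05. Without the 3 steepest libraries the counts were 27, 28, 25 and 28 of 34, with medians of 0.38, 0.42, 0.40 and 0.47. Over all genes 52.6%, 51.3%, 52.4% and 52.1% were then above 0. EdgeR called 0 of 34 in each, beside 0.438%, 0.174%, 0.281% and 0.157% of all genes, and 2, 0, 10 and 2 of the 34 had an unadjusted p under 0.05, beside 8.74%, 5.05%, 26.1% and 6.62% of all genes. The 4 contrasts share the AB_Implant libraries, and without AB_Implant replicate 3 the medians were 0.11, 0.18, 0.22 and 0.20. Against AB, the medians of the same 4 groups were -0.04, 0.06, 0.03 and 0.05, with 14, 23, 20 and 22 genes above 0, beside 55.3%, 58%, 47.8% and 52.7% of all genes. These 4 contrasts share the AB libraries. With the length slope as a covariate the medians were 0.01, 0.03, -0.11 and 0.11, and without the 3 steepest libraries 0.10, 0.12, 0.06 and 0.17. EdgeR and DESeq2 called 0 of 34 in these 4 contrasts (edgeR called 0.281%, 0.0909%, 0.149% and 0.0496% of all genes), with 1, 1, 0 and 1 of the 34 at an unadjusted p under 0.05, beside 4.29%, 3.97%, 5.13% and 5.19% of all genes.

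In VNS20_4w against AB_Implant the 34 genes lay on both sides, as all genes did. Fabp3, Pnpla2, Acot13, Acads, Eci1, Eci2, Acat1, Etfa, Etfb and Etfdh, 10 of the 34, lay above AB_Implant in every library, beside 23.2% of all genes, and Lpl, Acsl1, Acad11 and Ppargc1a, 4 of the 34, lay below it in every library, beside 25.6% of all genes. DESeq2 called 1 of 34, Ppargc1a, with 3.81% of all genes called. The 4 genes that were lower have transcripts of 3.44 kb or more, and every one of the 10 that were higher except Acat1 has one under 2.38 kb; VNS20_4w had length slopes of -0.372 to -0.305 and AB_Implant of 0.0545 to 0.304. With the length slope as a covariate the median over the 34 genes in this contrast was 0.05 in place of 0.34, and 0 of 34 were called (0.298% of all genes). In the other 3 stimulated groups the median with that covariate was 0.17, 0.20 and 0.28.

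Combining the 4 stimulated groups against AB and AB_Implant gave a median of 0.16, with 31 of 34 genes above 0, beside 53% of all genes and a median of 0.02 over them. EdgeR, DESeq2 and limma-voom with sample weights called 0 of 34 (edgeR called 0.438% of all genes), and 0 of the 34 had an unadjusted p under 0.05, beside 4.97% of all genes. The median was 0.10 with the length slope as a covariate and 0.27 without the 3 steepest libraries. Decr1, the reductase for doubly unsaturated chains, had the smallest p (log2 fold change 0.30, adjusted p = 0.991 in edgeR). Without the 3 steepest libraries edgeR called 9 of 34, beside 18.2% of all genes: Acot13, Eci1, Decr1, Fabp3, Etfb, Echs1 and Etfa higher and Acsl1 and Ppargc1a lower. The 9 stimulated libraries that then remain have slopes of -0.372 to -0.0369, and the 6 libraries of AB and AB_Implant -0.331 to 0.304. Without the 3 libraries 6 of 34 were called in VNS20_2w against AB_Implant (14.6% of all genes), 11 in VNS20_4w (32.1%), 1 in VNS20_1w (1.34%) and 0 in VNS10_1w (0.195%). Against Sham the stimulated groups had a median of 0.01, with 18 genes above 0 and 16 below (49.4% of all genes above 0), 0 of 34 called by edgeR and DESeq2 (edgeR called 0.347% of all genes) and 0 at an unadjusted p under 0.05, beside 8.74% of all genes. Limma-voom with sample weights called 5 of 34 there (23.6% of all genes). The balance depended on the length slope: with it as a covariate the median was -0.14, with 5 genes above 0 and 29 below and 0 called (1.4% of all genes). Without the 3 steepest libraries it was 0.11, with 22 above and 12 below and 6 called (28.9% of all genes).

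Within the stimulated groups, long and short transcripts among the 34 genes differed between libraries. Their transcripts run from 0.721 kb (Acot13) to 6.46 kb (Ppargc1a), with a median of 2.18 kb beside 2.99 kb over all tested genes. In the 3 steepest libraries Lpl, Acsl1, Cpt1a, Acad11 and Ppara were above all 9 other stimulated libraries, and 20 of the 34 genes were below all 9; over all genes 26.7% were above and 23.1% below. Of the 11 genes with transcripts over 3 kb, 5 were higher and 2 lower, with a median log2 difference of 0.95. Of the 13 under 2 kb, 0 were higher and 11 lower, with a median of -0.80. Acsl1 was 340.2 to 460.4 CPM in the 3 libraries and 78.2 to 205 CPM in the other 9, and Fabp3 was 2677 to 3155 CPM and 4776 to 7353 CPM. Hadha, at 4.017 kb, was an exception among the long transcripts, at 1091 to 1123 CPM against 1136 to 1631 CPM. 

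**Figure D5:**
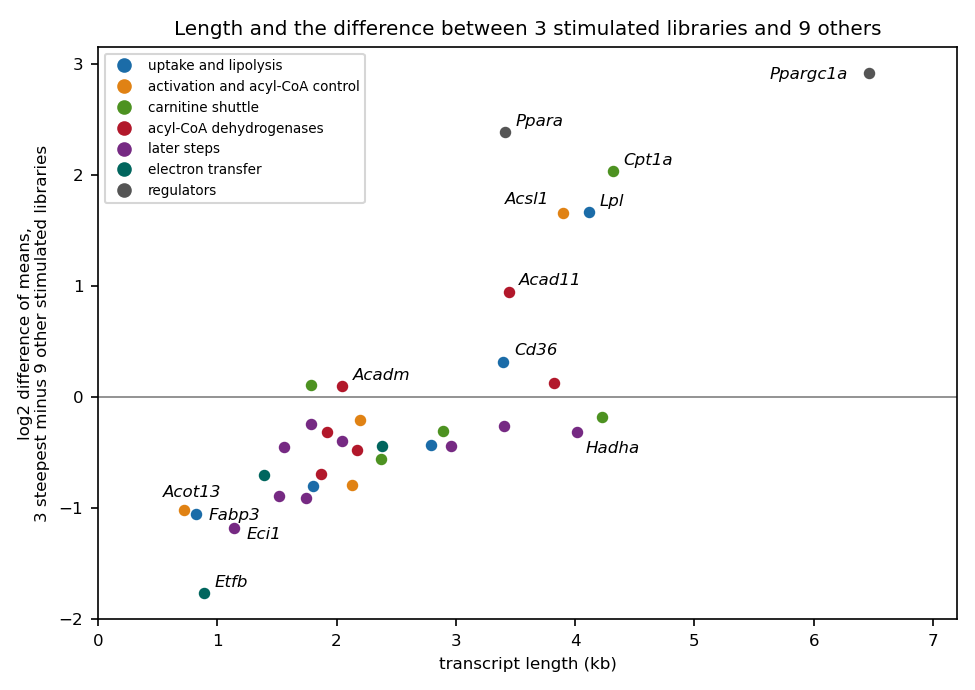
For each of the 34 genes, transcript length in kb against the difference of mean log2(TMM-scaled CPM + 0.5) between the 3 stimulated libraries of steepest length slope and the other 9. Genes under 2 kb lie mostly below 0 (median -0.80) and Ppargc1a, at 6.46 kb, is highest at 2.92.

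EdgeR called no gene of the 34 between start weeks or between daily session lengths, and other settings called a few. In the F test over VNS20_1w, VNS20_2w and VNS20_4w edgeR called 0 of 34 (0% of all genes) and 2 had an unadjusted p under 0.05 (9.12% of all genes), Ppargc1a (adjusted p = 0.523) and Cpt1a (adjusted p = 0.523); DESeq2 called 0 of 34 and limma-voom with sample weights called 3, beside 20.8% of all genes. Between 20 and 10 min a day from week 1 (VNS20_1w against VNS10_1w) 26 of 34 genes were below 0 (48.5% of all genes), with a median of -0.08, edgeR called 0 of 34 (0.0909% of all genes) and DESeq2 0, and Acot2 and Ppargc1a had an unadjusted p under 0.05, beside 4.5% of all genes. Limma-voom with sample weights called 4 there, Acot2, Mlycd, Ppargc1a and Slc27a1, all lower in VNS20_1w, beside 16.5% of all genes. With the length slope as a covariate edgeR called Ppargc1a (log2 fold change -2.001, adjusted p = 0.0046), beside 1.25% of all genes.

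Other genes of fatty acid metabolism, 65 in 4 lists of which 64 were tested, gave 1 call over the 16 tests. That gene was Ehhadh, the peroxisomal bifunctional enzyme, which is abundant in liver. It was 15.5, 7.85 and 8.32 CPM in Sham, 5.08, 4.24 and 5.96 CPM in AB, 3.40, 4.62 and 5.39 CPM in AB_Implant, and 6.74 to 22.1 CPM in the 12 stimulated libraries. Every stimulated library was above every library of AB and AB_Implant (log2 fold change 1.49, SE 0.26, adjusted p = 0.00850, edgeR). The hepatocyte marker Alb was 0 to 1.18 CPM in the 9 unstimulated and 9.18 to 76.6 CPM in the 12 stimulated libraries. Alb and Ehhadh did not follow each other throughout. In Sham, Alb was at most 0.180 CPM, while Ehhadh there was within its range in stimulated libraries. VNS20_2w replicate 2 had the lowest stimulated Ehhadh, 6.74 CPM, with Alb at 46.0 CPM. The part of hepatocyte transcripts in the result was not tested. Pdk4, the kinase that turns off pyruvate dehydrogenase and a PPAR target, was 221, 177 and 239 CPM in AB_Implant and 68.3, 8.09 and 40.0 CPM in AB. It was 20.7, 13.2 and 19.6 CPM in VNS20_4w, and the means of these groups had the same order as for Ppargc1a. Sham differed: Pdk4 there was 178, 161.5 and 18.15 CPM and overlapped AB_Implant, whereas Ppargc1a in AB_Implant lay above every Sham library. The log2 fold change of Pdk4 in VNS20_4w against AB_Implant was -3.58 (SE 0.93, adjusted p = 0.111, edgeR). Rxra, the partner receptor of PPARα, was 1.27 to 1.83 CPM in VNS20_4w and 3.73 to 5.22 CPM in AB_Implant (log2 fold change -1.46, adjusted p = 0.165, edgeR). Acsl6, a long-chain acyl-CoA synthetase, was 4.51 to 10.98 CPM in Sham and 8.29 to 21.4 CPM in the stimulated libraries. Its levels in AB, 12.07 to 18.35 CPM, and in AB_Implant, 10.24 to 10.82 CPM, lay within the stimulated range. Vldlr, a lipoprotein receptor, was 57.6 to 168.5 CPM in the stimulated and 64.0 to 102.0 CPM in the Sham libraries. Neither was called.

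Other mitochondrial lists lay on the same side as the 34 genes. In AB_Implant against Sham, 22 of 23 nuclear genes of the respiratory chain (median -0.22) and 12 of 12 citric acid cycle genes (median -0.24) were below 0, as 31 of the 34 were, and 11 of 21 genes of glucose uptake and glycolysis (median -0.04). In stimulated against AB and AB_Implant, 23 of 23, 10 of 12 and 14 of 21 were above 0, with medians of 0.21, 0.15 and 0.06 beside 0.16 for the 34. None of these genes was called by edgeR in either contrast. White and brown adipose markers bear on a set of genes that fat also expresses: Lep was at 0 in all 21 libraries, the 6 white adipose markers summed to at most 3.90 CPM in any library, and Ucp1 was at 0 in every group but AB_Implant, where it reached 0.151 CPM. The brown adipose marker Elovl3 was at most 0.200 CPM in any library. Cidea and Cox8b did not share this: Cidea was 20.7 to 49.2 CPM and Cox8b 158.9 to 673 CPM over the 21 libraries. They made up nearly all of the sum of the 4 markers, 180.4 to 719 CPM. Whether their RNA came from fat or from heart muscle was not tested.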

How the data were processed

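RNA from left ventricle was sequenced as paired reads after poly(A) selection, with 3 labelled biological replicates in each of 7 groups. The deposited values are counts per gene: all were whole numbers, and per the submitters' processing notes FastQC 0.11.9, cutadapt 1.11, HISAT2 2.1.0, featureCounts 1.6.0, edgeR 3.32.1 and R 4.0.3 were named, with the builds GRCm38 and mm10. Whether reads were counted by strand is not given in the sources used here. The counts were used as raw counts, since their low values filled the whole numbers evenly, as scaled counts would not. The 13 mitochondrially encoded genes took 34.4% to 55.3% of the counts of a library, and 4898 genes had no count in any library.

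Genes with at least 1 CPM in at least 3 libraries (12100) were fitted with edgeR 4.0.16 (R 4.3.3), using TMM factors, 1 quasi-likelihood model over the 7 groups and Benjamini-Hochberg adjustment at 0.05. This made 14 contrasts and 2 F tests. The fitting steps were first tested on simulated data. Alternatives were DESeq2 1.42.0, limma-voom (limma 3.58.1) with sample weights, DESeq2 size factors, other filters, no mitochondrially encoded genes, the length slope or the replicate number as a covariate, only the groups of the contrast, no steepest libraries, and each library left out. Log2 levels used a pseudocount of 0.5. Per-length levels used transcript lengths of the GRCm38 annotation. The members and lists were chosen with earlier results of these data known. Named in any case were 14 genes, and with the 8 of smallest p in the F test over 7 groups they made 18. Of the other pathway genes, the called one and the 5 of smallest p in that test were named. Members outside these rules were chosen after their values were seen. Labels give the week of implantation for AB_Implant. Exact tests of 3 against 3 libraries cannot go below p = 0.1, so none was used.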

Additional observations from a re-analysis of the deposited data

How the results depend on the processing

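EdgeR called 0 of the 34 genes in all 16 tests, and this count stayed at 0 with no filter on low counts, a filter at a mean of 5 CPM, DESeq2 size factors, no mitochondrially encoded genes, and the replicate block. Same-numbered libraries did not pair: over 63 pairs the correlation of their deviations ran from -0.70 to 0.783, with 17 over 0.1, so the 0 calls with the replicate block say nothing of pairing. Leaving out 1 library gave 0 to 1 called genes of the 34 in AB_Implant against Sham, beside 0 to 152 of all genes, and 0 in the other 15 tests.

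Shares in brackets are of all genes called in the same fit. DESeq2 called 1 in VNS20_4w against AB_Implant (3.81%) and 1 in the F test over 7 groups (4.47%). Limma-voom with sample weights called 3 in AB_Implant against Sham (4.17%), 6, 13, 20 and 17 in VNS20_1w, VNS20_2w, VNS20_4w and VNS10_1w against AB_Implant (17.1%, 18.5%, 41.1% and 16.7%), 5 in stimulated against Sham (23.6%), 4 in VNS20_1w against VNS10_1w (16.5%), 13 in the F test over 7 groups (47.9%) and 3 in that over start weeks (20.8%). The length slope as a covariate gave 4 in AB_Implant against Sham (5.88%) and 1 each in AB_Implant against AB (0.347%), VNS20_1w against AB_Implant (3.69%), VNS20_2w and VNS10_1w against AB (0.496% and 0.14%), VNS20_1w against VNS10_1w (1.25%) and the F test over 7 groups (3.58%). Fitting only the groups of the contrast gave 10 in VNS20_4w against AB_Implant (36.8%). Without the 3 steepest libraries the counts were 1, 6 and 11 in VNS20_1w, VNS20_2w and VNS20_4w against AB_Implant (1.34%, 14.6% and 32.1%), 9 in stimulated against AB and AB_Implant (18.2%), 6 in stimulated against Sham (28.9%) and 4 in the F test over 7 groups (21.1%). The cause of these differences was not tested.

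2 genes were called with the opposite sign. Acsl1 in VNS20_2w against AB_Implant was -0.80 on the log2 scale with sample weights (adjusted p = 0.0433, limma-voom). Ppargc1a in stimulated against AB and AB_Implant was -1.01 without the 3 steepest libraries (adjusted p = 0.0447, edgeR). Depth limits Cpt1a, Ppara and Ppargc1a, with minimum counts of 10, 14 and 33.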

Other observations

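Outside the 34 genes, the other pathway genes lay lower in AB_Implant than in Sham in 46 of 64 cases, with a median log2 fold change of -0.14. By list, 11 of 13 other mitochondrial acyl-CoA and ketone genes were below 0 (median -0.34), 8 of 10 peroxisomal genes (median -0.14) and 15 of 16 transcription factors (median -0.14), while PPAR-responsive and lipid handling genes were split, 12 of 25 below 0 (median 0.01). EdgeR called 0 of the 64 in that contrast, and 9 had an unadjusted p under 0.05, beside 9.58% of all genes.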
